A study of Mus musculus with 4 samples.

Results

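CDH19, GLUL, TAGLN, SPARC, C1QB and ESAM are genes by which glia, fibroblasts and smooth muscle, macrophages and endothelium are recognised, and they were examined here as a check of cells other than neurons in the axon and cell body compartments of dorsal root ganglion (DRG) cultures. Every spot whose platform annotation gives exactly 1 of these symbols was taken, which yielded 11 spots of the 9600 on each array, or 6 genes of the 6284 named by a single-gene spot. GLUL has 4 clones, TAGLN and SPARC have 2 each, and CDH19, C1QB and ESAM have 1 each. A clone is called here by its number in the deposited order of spots.

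The ganglion holds sensory neurons together with satellite glia, which wrap the neuronal somata, Schwann cells, which ensheathe axons, and the fibroblasts, vessels and macrophages of the connective tissue. CDH19 is a cadherin of Schwann cell precursors and Schwann cells, and GLUL is glutamine synthetase, which is abundant in satellite glia. SPARC is a secreted matrix glycoprotein of fibroblasts, endothelium and glia, and TAGLN (transgelin) binds actin in smooth muscle and activated fibroblasts. C1QB is a chain of complement C1q, made mainly by macrophages, and ESAM is an adhesion molecule of endothelial junctions. Since axons in a compartmented culture are separated from the somata by a barrier, RNA of cells that also live among the axons would be collected with the axonal RNA.

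The cultures were made from NIH Swiss mouse embryos of embryonic day 13.5 and grown for 3 weeks, by the sample records, in Campenot chambers, with neurons plated in the side compartments. No genetic change is named in the sample records, and the 4 groups share the culture, the overnight change to medium without serum and nerve growth factor, and the early treatment with fluoro-2-deoxyuridine and uridine, by which the division of non-neuronal cells was inhibited. The groups are axons and cell bodies after 2 h of electrical stimulation, and axons and cell bodies without stimulation. Each group is 1 pool of coverslips on 1 nylon array, so that no difference below has a replicate check and none carries a p-value. By the study's description, absence of somata from the axon compartment was judged by eye.

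The values are raw phosphor imager intensities of cDNA clones, with array medians between 89.3 and 159.7. The symbols of the clones are human while the RNA is from mouse, and how much RNA a given intensity stands for differs from clone to clone, so intensities of different clones are not compared as RNA levels. To set arrays side by side, the log10 intensities of an array were turned into z-scores over its 9600 spots. Subtracting the z-scores of 2 arrays and scaling the result by its SD across the 9600 spots gives the z ratio of a comparison, and spots reaching the methods' arbitrary cut-off of 1.4 in either direction are called past the threshold. Over 3640 pairs of clones of the same gene, the spread of a z ratio about its gene was 0.887 for stimulation in axons, 0.715 for stimulation in cell bodies, 0.772 for axons against cell bodies without stimulation and 0.845 with it. The correlation between clones of the same gene was low, between 0.072 and 0.132 for z ratios and between 0.093 and 0.117 for z-scores, so that the value of a spot was only weakly shared by other spots of its gene. In bulk RNA of this kind fewer cells of a type and less RNA per cell cannot be told apart.

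All 11 marker spots lay above the blank places of the membrane in both compartments, as most spots did. Blank places are here the 384 spots at places 25 and 50 of every 50 in the deposited order, which hold no named clone. Unnamed spots at other places are not among them, and some of those are bright. On every array each marker spot was brighter than all blank places. Their highest intensity was 65.4 in stimulated axons, 35.8 in unstimulated axons and 10 on both cell body arrays, a value that fills dim spots there. Of all spots 69.2% in stimulated axons, 82.8% in unstimulated axons, 92.4% in stimulated cell bodies and 93.8% in unstimulated cell bodies were above every blank place. The dimmest marker value was 70.1, for TAGLN spot 8536 in stimulated axons, and the brightest 16465, for C1QB spot 2577 on the same array. The median marker spot ranked at the 69.5th percentile of all spots in stimulated axons, the 72.6th in unstimulated axons, the 80.1st in stimulated and the 80.0th in unstimulated cell bodies.

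**Figure D1:**
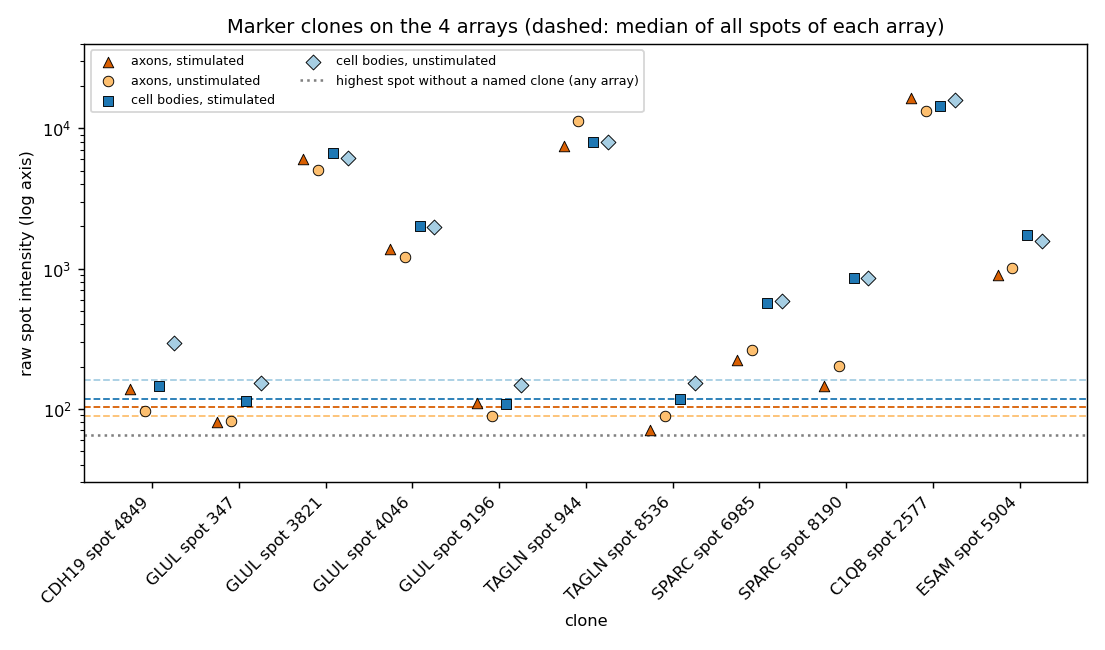
Raw intensity (log axis) of the 11 marker clones on the 4 arrays, 1 symbol per array, with dashed lines at each array's median over all spots and a dotted line at 65.4, the highest value of the blank places on any array. Both SPARC clones lie lower on the axon arrays than on the cell body arrays, as do most of the other marker clones. The clones of GLUL and TAGLN lie far apart from each other on every array.

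SPARC was the marker whose clones stood lower in axons than in cell bodies together. Spot 8190 read 145 in stimulated axons, 200 in unstimulated axons, 862 in stimulated cell bodies and 862 in unstimulated cell bodies. Spot 6985 read 222, 261, 567 and 588 in the same order. On both clones the cell body arrays lay close to each other and the axon arrays below them, with no overlap between the compartments. Most of the other marker spots, among them CDH19, ESAM and TAGLN spot 8536, were likewise lower in raw intensity on both axon arrays. Such a separation alone is therefore not particular to SPARC, and its share over all spots was not computed. The raw intensity of spot 8190 was 5.95 times higher in cell bodies than in axons with stimulation and 4.30 times higher without it, and that of spot 6985 was 2.55 and 2.26 times higher, while the array medians differed by 1.15 and 1.79 times in the same direction.

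With stimulation the z ratio of axons against cell bodies was −2.44 for SPARC spot 8190, past the threshold, and −1.17 for spot 6985. Without stimulation it was −1.48 for spot 8190, past the threshold, and −0.48 for spot 6985, which lies within the spread between clones of a gene. As a mean over both clones SPARC stood at −1.81 with stimulation and −0.98 without it, the 154th and 507th lowest of 6284 genes. The unstimulated and the stimulated comparison share no array. Of 1059 genes with exactly 2 clones, 197 (18.6%) had both clones below 0 in both of these comparisons, so this direction alone is not particular to SPARC. The call of spot 8190 without stimulation was lost with robust z-scores (−1.34) and when differences were centred by place on the membrane (−1.07). The call with stimulation held with robust z-scores (−1.71), quantile normalization (−2.22), loess (−2.58) and centring by place (−2.41).

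Within the axon compartment both SPARC clones were dimmer after stimulation relative to the array. Spot 8190 had a z ratio of −1.19 and spot 6985 one of −0.76, neither past the threshold, with a mean of −0.97. Spot 8190 exceeded the spread between clones of 0.887, as 23.8% of all spots did, and spot 6985 did not. In cell bodies both clones were at 0.26 for stimulation, inside the spread of 0.715 there. The spot after SPARC spot 6985 is a bright clone of NOP56, a nucleolar protein, which read between 7922 and 11195. SPARC spot 6985 read at 2.25% to 5.61% of it. NOP56, like SPARC, was dimmer in axons than in cell bodies in raw intensity, at 7922 against 10478 without stimulation and 9868 against 11195 with it. Its z ratios were 0.63 and 1.04, above 0 as was the median of the brightest spots.

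TAGLN, the other fibroblast and smooth muscle marker, gave a bright and a dim clone that did not follow each other across compartments. Spot 944 read 7497 in stimulated axons, 11271 in unstimulated axons, 8035 in stimulated cell bodies and 7965 in unstimulated cell bodies. It was highest in unstimulated axons and similar on the other 3 arrays. Spot 8536 read 70.1, 88.8, 117 and 152 in the same order, so that it was lowest in the axons and near or below the median of all spots on every array. Averaged over arrays the bright clone read 81.2 times the dim one. The spot after the dim clone is a brighter clone of ADGRG1, an adhesion receptor, between 2064 and 3153, and TAGLN spot 8536 read at 2.96% to 5.14% of it.

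Without stimulation the z ratio of TAGLN in axons against cell bodies was 1.61 for spot 944, past the threshold, and −0.15 for spot 8536. The call of spot 944 was lost with quantile normalization (0.89) and with loess (0.95). With stimulation the values were 1.04 and −0.94, again of opposite sign. For stimulation in axons the clones did stand on the same side, at −0.92 and −1.07, both beyond the spread between clones of 0.887 but under the threshold, and in cell bodies they were at −0.15 and 0.07. For stimulation in axons spot 944 ranged from −0.07 with robust z-scores, well inside that spread, to −2.61 with normexp background correction, past the threshold.

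GLUL, the glial enzyme with the most clones, showed little difference between arrays and a large difference between clones. Spot 3821 read 6076 in stimulated axons, 5040 in unstimulated axons, 6642 in stimulated cell bodies and 6190 in unstimulated cell bodies, and spot 4046 read 1386, 1208, 2015 and 1992. Spots 347 and 9196 were dim on all arrays, between 79.9 and 152. The brightest clone averaged 56.1 times the dimmest, and the SD of the mean z-score between the clones was 12.8 times their SD over the 4 arrays, against a median ratio of 3.86 over 1488 genes with 2 or more clones. The mean z-scores of the SPARC clones nearly coincided, with a ratio of 0.00286, because their differences cancelled: spot 6985 was above spot 8190 in stimulated axons (0.20 and −0.07) and unstimulated axons (0.40 and 0.25) and below it in stimulated cell bodies (0.65 and 0.87) and unstimulated cell bodies (0.58 and 0.80).

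No GLUL clone passed the threshold in any of the 4 comparisons. The mean z ratio of the gene was 0.00 for stimulation in axons, 0.04 for stimulation in cell bodies, 0.10 for axons against cell bodies without stimulation and 0.08 with it. Its clones ranged from −0.68 to 0.95 with stimulation and from −0.30 to 0.70 without it in axons against cell bodies, the bright spot 3821 highest in both. With robust z-scores spot 3821 passed at 2.10 with stimulation. The spot before GLUL spot 4046 is a clone of the mitochondrial ribosomal protein MRPL4, between 1667 and 2401, and GLUL read at 72.5% to 90.2% of it. Beside the dim spot 9196 lie brighter clones of FAM163A, between 202 and 525, and of AP4B1, an adaptor complex subunit, between 779 and 1192.

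CDH19, the Schwann lineage cadherin, was measured by 1 clone that stood highest in unstimulated cell bodies. It read 138 in stimulated axons, 96.8 in unstimulated axons, 145 in stimulated cell bodies and 296 in unstimulated cell bodies. The other 3 arrays lay close to each other and to the median of all spots. The z ratio was −1.02 for axons against cell bodies without stimulation and −0.96 for stimulation in cell bodies, both beyond the spread between clones and under the threshold. It was −0.10 for axons against cell bodies with stimulation and 0.36 for stimulation in axons. For stimulation in cell bodies CDH19 passed the threshold at −2.41 with normexp background correction and at −1.64 with only spots above 10 on both arrays, and without stimulation it passed in axons against cell bodies at −1.60 with normexp.

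The clone in the place before CDH19 is REEP3, a protein of the endoplasmic reticulum, and its signal followed that of CDH19 on all 4 arrays. REEP3 read 155, 107, 180 and 344 in the order used above, so that CDH19 was at 88.8%, 90.8%, 80.5% and 86.0% of it. The z ratios of REEP3 were 0.42, −0.86, −1.10 and −0.20 for stimulation in axons, for stimulation in cell bodies, and between the compartments without stimulation and with it. The part of that neighbouring signal in the value of CDH19 was not tested.

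C1QB, the complement chain of macrophages, was the brightest marker spot on every array. It read 16465 in stimulated axons, 13392 in unstimulated axons, 14549 in stimulated cell bodies and 16040 in unstimulated cell bodies. The compartments overlapped, since stimulated axons were highest and unstimulated axons lowest, and the highest value was 1.23 times the lowest. Its z ratio in axons against cell bodies was 1.53 with stimulation, past the threshold, and 0.82 without it. The call was lost with quantile normalization (0.30), loess (0.33), log2 ratios of arrays centred on their medians (0.38) and differences centred by place on the membrane (1.26). Stimulation gave 0.57 in axons and −0.49 in cell bodies, and with robust z-scores these were past the threshold at 1.45 and −1.68.

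An unnamed spot directly before C1QB was brighter still, at 25131, 23183, 24365 and 25949 in the same order, and C1QB read at 57.8% to 65.5% of it. Its z ratio in axons against cell bodies was 1.53 with stimulation and 0.97 without it. On the 4 arrays between 15 and 24 spots exceeded 20000, and the median of the next spot was between 0.120% and 0.468% of the bright spot, with 1 next spot per array at 50% or more, which was C1QB itself. The part of the neighbouring signal in the value of C1QB was not tested.

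ESAM, the endothelial adhesion molecule, read 900.0 in stimulated axons, 1010 in unstimulated axons, 1746 in stimulated cell bodies and 1574 in unstimulated cell bodies. Both cell body arrays were above both axon arrays in raw intensity, by 1.94 times with stimulation and 1.56 times without it. Relative to all spots of each array, however, ESAM hardly moved. Its percentile was between 84.3 and 86.2 on the 4 arrays, and its z ratio was −0.39 for axons against cell bodies with stimulation, 0.20 without it, −0.50 for stimulation in axons and 0.36 for stimulation in cell bodies. All 4 values lie within the spread between clones of a gene, and no second clone was there to compare.

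**Figure D2:**
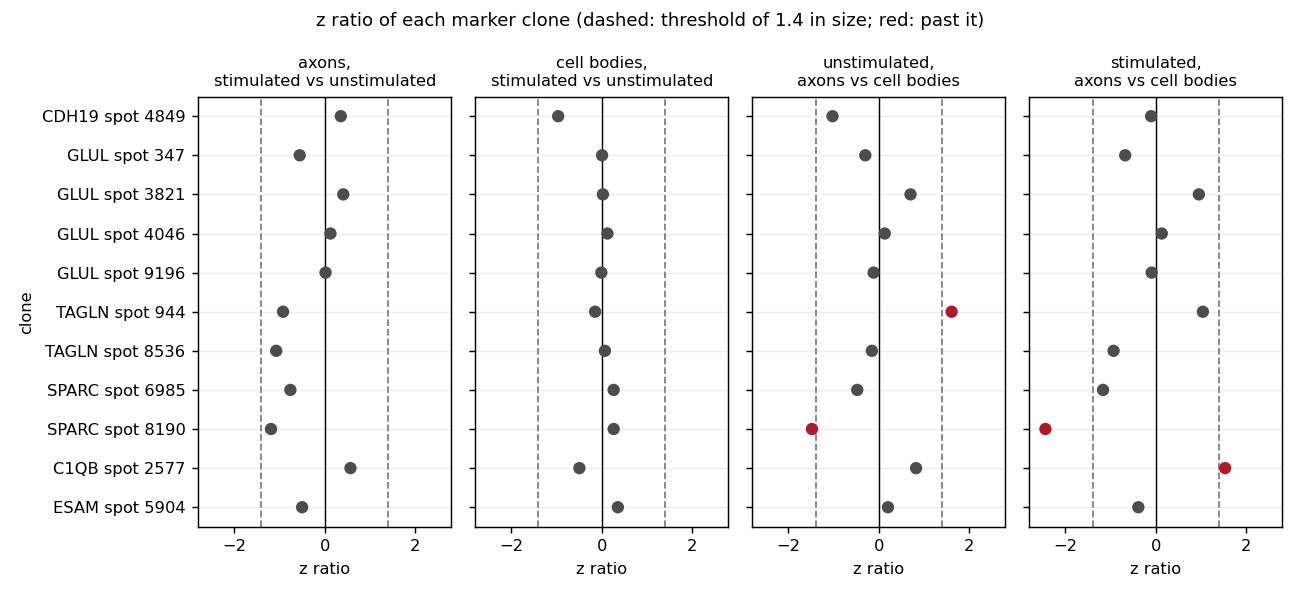
The z ratio of each of the 11 marker clones in the 4 comparisons, 1 panel each, with dashed lines at −1.4 and 1.4 and clones past them in red. SPARC spot 8190 passes in both comparisons of axons with cell bodies, at −1.48 and −2.44, TAGLN spot 944 without stimulation at 1.61 and C1QB spot 2577 with stimulation at 1.53.

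Across the 11 marker spots, few passed the threshold and they did so in opposite directions. For stimulation none of them passed, neither in axons, where 10.2% of all spots did, nor in cell bodies, where 6.28% did. Those shares depended on brightness. With all spots put in 10 bins by brightness, 36.8% of the dimmest bin passed in axons and 39.8% in cell bodies. In the bins that hold marker spots, 0% to 8.44% passed in axons and 0% to 0.625% in cell bodies. A count of 0 therefore says little about the response of the markers to stimulation. In axons against cell bodies without stimulation 2 passed, against 8.82% of all spots. They were TAGLN spot 944, higher as were 5.2% of all spots, and SPARC spot 8190, lower as were 3.62%. With stimulation 2 passed as well, against 10.5% of all spots. They were C1QB spot 2577, higher as were 4.77% of all spots, and SPARC spot 8190, lower as were 5.69%. In so small a set these counts do not set the markers apart from all spots.

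The median z ratio over the marker spots was −0.50 for stimulation in axons and 0.03 in cell bodies, against medians of 0.04 and 0.07 over all spots. For axons against cell bodies it was −0.11 without stimulation, with 5 spots above 0 and 6 below, and −0.10 with it, with 4 above and 7 below. Over all spots the medians were −0.05 and −0.03. Differences larger than the spread between clones of a gene were found for 3 marker spots for stimulation in axons and 1 in cell bodies, and for 4 spots without and 6 with stimulation in axons against cell bodies. Of all spots 23.8%, 21.8%, 27.7% and 26.4% did so in these comparisons.

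Over the whole array the z ratio in axons against cell bodies depended on brightness. All spots were put in 10 bins of 960 by their mean log intensity. In the brightest bin the median z ratio was 0.58 without stimulation and 0.81 with it, although the raw intensity in axons was 0.760 and 0.851 times that in cell bodies. GLUL spot 3821, TAGLN spot 944 and C1QB spot 2577 belong to this bin. With stimulation they lay 0.14, 0.23 and 0.72 above its median, and C1QB was the 18th highest of 960. Without stimulation TAGLN spot 944 lay 1.03 above the median and was the 2nd highest of 960, whereas C1QB lay 0.24 and GLUL 0.12 above it.

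Both SPARC clones belong to the 8th bin from the dimmest, where the median was −0.09 without stimulation and −0.21 with it. Against spots of that brightness SPARC spot 8190 was the 22nd lowest of 960 without stimulation and the 20th lowest with it, and spot 6985 the 228th and 152nd lowest. In that bin 3.65% of spots passed the threshold without stimulation and 12.1% with it. TAGLN spot 944 was also the 7th lowest of the brightest 960 spots for stimulation in axons. For stimulation in cell bodies CDH19 was the 15th lowest of the 960 in its own bin. C1QB was the 11th lowest of the brightest 960 there, at −0.49 against a bin median of −0.05.

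**Figure D3:**
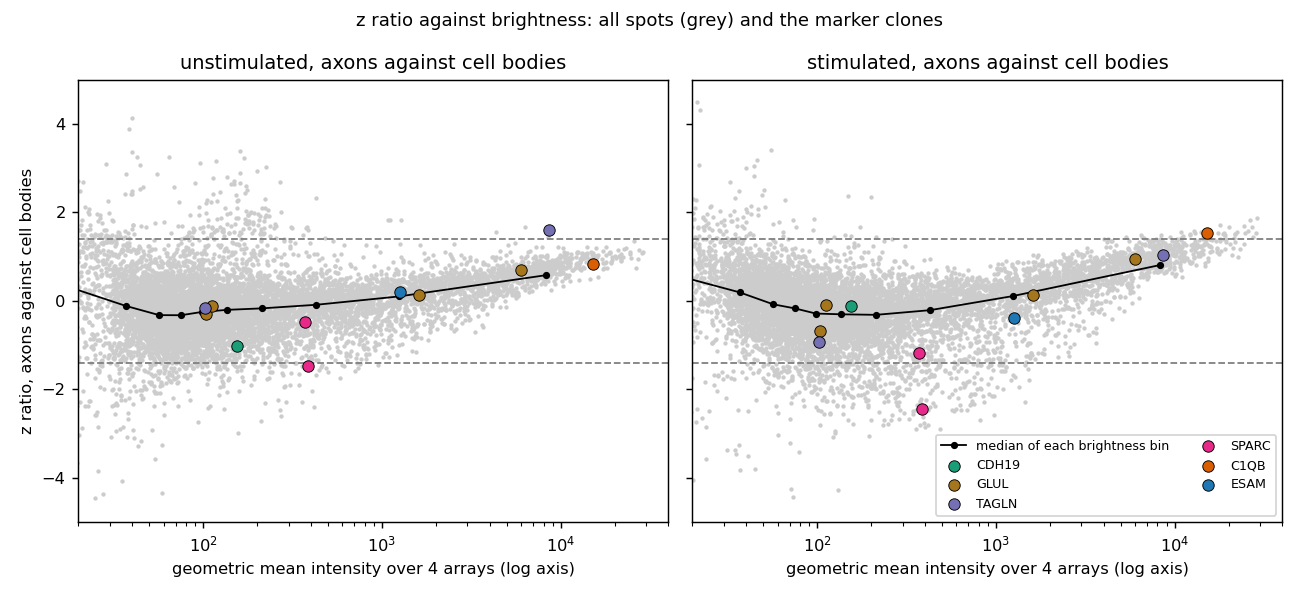
The z ratio of axons against cell bodies of every spot (grey) against its geometric mean intensity over the 4 arrays (log axis), without and with stimulation, with the 11 marker clones in colour and the median of each brightness bin in black. Spots dimmer than 20 or past 5 in size are not drawn. The black line rises to 0.58 and 0.81 in the brightest bin, near which the bright GLUL clone lies, while SPARC spot 8190 lies far below it in both panels.

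The clones closest in pattern to each marker's brightest clone were found by Euclidean distance over the z-scores of the 4 arrays. Nearest to SPARC spot 8190 were a clone of DPYSL5, a collapsin response mediator protein of neurons, at 0.072 and a clone of ENSA, a phosphatase inhibitor, at 0.075. The DPYSL5 clone read 159 in stimulated axons, 201 in unstimulated axons, 822 in stimulated cell bodies and 811 in unstimulated cell bodies. The other SPARC clone was 0.438 away, farther than 93 clones of other genes. Nearest to TAGLN spot 944 were MED31, a Mediator subunit, at 0.071 and DPYD, which degrades pyrimidines, at 0.204, while 4725 clones of other genes were nearer than the dim TAGLN clone.

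For GLUL spot 3821 the nearest clones were the axonemal dynein DNAH6 at 0.033 and DET1 at 0.040, and 1090 clones were nearer than the next GLUL clone. C1QB was nearest to VPS35L at 0.030 and INTS15, an Integrator subunit, at 0.069. ESAM was nearest to SLC10A3, a solute carrier, at 0.041 and HNRNPF, a splicing regulator, at 0.061. CDH19 was nearest to UBLCP1, a phosphatase, at 0.112 and RIOK2, a ribosome maturation kinase, at 0.120. With 4 arrays such a distance reflects mostly how bright a clone is.

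Other markers of the same cell types, taken by symbol, were set beside the 6 genes. Of 26 glial markers 10 were on the arrays, of 23 fibroblast and matrix markers 11, of 17 smooth muscle and pericyte markers 6, of 22 macrophage markers 8 and of 20 endothelial markers 5, the 6 genes included. These 40 genes and 15 of 37 sensory neuron markers are given as means over clones. Past the threshold were 1 of the 40 without stimulation and 6 with it in axons against cell bodies, against 6.22% and 7.43% of all genes. For stimulation 5 passed in axons and 3 in cell bodies, against 7.83% and 4.34% of all genes. Many of these rest on spots at background level. A clone not above the 95th percentile of the blank places, on an array compared, was held by all 5 genes for stimulation in axons, 1 of 3 in cell bodies, the 1 gene without stimulation and 3 of 6 with it in axons against cell bodies. On both cell body arrays that percentile was 10, the value that fills dim spots there. The criterion is therefore weaker in cell bodies than in axons, and these counts are not comparable between compartments.

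The glial list did not stand apart in level or in difference between compartments. Its median z-score was between −0.24 and −0.13 on the 4 arrays, against −0.21 to −0.10 over all genes. Its median z ratio in axons against cell bodies was −0.28 without stimulation and 0.01 with it, against −0.06 and −0.04 over all genes. SOX10, a transcription factor of Schwann cells and satellite glia, was at 0.09 and −0.06 over 2 clones, and S100B, a calcium-binding protein of glia, at 0.10 and 0.37. GFAP, a glial filament protein, was dim, at 20.8 in stimulated axons, 29.7 in unstimulated axons, 44.2 in stimulated cell bodies and 76.8 in unstimulated cell bodies. With stimulation GFAP passed the threshold towards cell bodies, but in stimulated axons it was not above the 95th percentile of the blank places, 42.5. VIM, the filament protein vimentin of glia and fibroblasts, read 62.8, 13.9, 19.3 and 24.0, and was not above 21.9, that percentile in unstimulated axons.

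Among fibroblast genes SPARC and DCN, the proteoglycan decorin, passed the threshold towards cell bodies, as means over clones and with stimulation. Only SPARC of these had all values above the 95th percentile of the blank places. That percentile was 42.5 in stimulated axons, 21.9 in unstimulated axons and 10 on both cell body arrays. It therefore more readily sets aside genes that are dim in axons. S100A4, a calcium-binding protein of fibroblasts and leukocytes, passed in the other direction, at 1.71 in stimulated axons against stimulated cell bodies and 1.23 without stimulation. Its 1 clone read 20789 in stimulated axons, 17852 in unstimulated axons, 16952 in stimulated and 16671 in unstimulated cell bodies. FN1, the matrix protein fibronectin, was at 0.75 without and 1.21 with stimulation, the collagen chain COL6A2 at 0.44 and 0.45 and the collagen chain COL5A1 at 0.15 and −0.30. DCN read 15.3, 19.5, 32.3 and 63.5 in the order used above and was not above that percentile of the blank places in axons. PDGFRA, a growth factor receptor of fibroblasts, read 49.5, 5.65, 10 and 10. An exact z ratio is printed for neither. MFAP5, a protein of matrix fibrils, was at −1.40 for stimulation in cell bodies. The median of the 11 genes in axons against cell bodies was −0.36 without and 0.04 with stimulation, and −0.17 and 0.25 without SPARC.

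As means over clones, all 6 smooth muscle and pericyte genes lay above the mean of all spots on every array, against 40.1% to 45.2% of all genes. TAGLN did so through its bright clone, since its dim clone was below that mean on every array. TPM2, a tropomyosin of contractile filaments, was at 0.39 in axons against cell bodies without stimulation and 0.76 with it, and ACTA2, smooth muscle actin, at 0.68 and 1.36. TPM1, another tropomyosin, was at 0.10 and 0.47, and MYL9, a myosin light chain, at −0.53 and −1.03. None of the 6 passed the threshold in any of the 4 comparisons as a mean over clones. Their median was 0.31 without and 0.26 with stimulation.

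The other complement gene on the arrays, C1QC, did not follow C1QB in axons against cell bodies. It was at −0.35 without stimulation and −0.96 with it, where C1QB was at 0.82 and 1.53. LYZ, the macrophage enzyme lysozyme, was at 0.50 and 0.20, and TYROBP, a signalling adaptor of myeloid cells, at −0.66 and −0.77. CD14, a receptor for bacterial lipopolysaccharide, read 96.3 in stimulated axons, 61.0 in unstimulated axons, 43.0 in stimulated cell bodies and 10 in unstimulated cell bodies. That last value is one that fills many dim spots of the array, and an exact z ratio against it is not printed. The median of the 8 macrophage genes was 0.42 without and 0.02 with stimulation.

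ESAM was the only one of 5 endothelial genes above the mean of all spots on every array. ICAM2, an adhesion molecule of endothelium, was at −0.80 in axons against cell bodies without stimulation and −1.16 with it, and EGFL7, a secreted endothelial factor, at 0.13 and 0.04. ENG (endoglin) read 37.3, 6.56, 29.1 and 13.2 and CLDN5, a tight junction protein, 29.8, 8.54, 12.6 and 17.1 in the order used above. Neither was above the 95th percentile of the blank places on either axon array. The 5 genes had a median of −0.59 without and −0.09 with stimulation. Those medians are the values of CLDN5 and of ENG, respectively, and so rest on spots at background level in axons. The share of the 5 genes in the summed intensity of all genes was 0.0253% in unstimulated and 0.0226% in stimulated axons, and 0.0307% and 0.0335% in the corresponding cell bodies.

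The sensory neuron genes, like all genes, lay below 0 more often than above it in axons against cell bodies. None of them was past the threshold there. Without stimulation 10 of 15 were below 0 and with it 8 of 15, against 54.1% and 52.8% of all genes. The median z ratio of the neuron genes in axons against cell bodies was −0.09 without and −0.02 with stimulation, against −0.06 and −0.04 over all genes. Their share of the summed intensity was between 0.112% and 0.126% on the 4 arrays. CHGA, a protein of dense-core vesicles, was at 0.09 and 0.33 over 3 clones, UCHL1, a neuronal deubiquitinase, at 0.07 and 0.36, the neurofilament NEFM at 0.26 and −0.41 and the neuronal RNA-binding protein ELAVL3 at −0.22 and −0.06. Chosen after their values were seen, the synaptic protein SNAP25 was at −1.20 and −1.27, neuronal tubulin TUBB3 at −0.80 and −1.19 over 2 clones and the growth-associated STMN2 at −1.19 and 0.08. For stimulation the filament gene INA and the neurotrophin receptor NTRK3 passed in axons and in cell bodies, respectively. INA read 69.7, 19.3, 23.3 and 26.9 and NTRK3 24.6, 18.3, 10.9 and 39.6. INA was not above the 95th percentile of the blank places in unstimulated axons, and NTRK3 was not above it on either axon array. The call of NTRK3 rests on its 10.9 in stimulated cell bodies, close to the 10 that fills dim spots there.

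**Figure D4:**
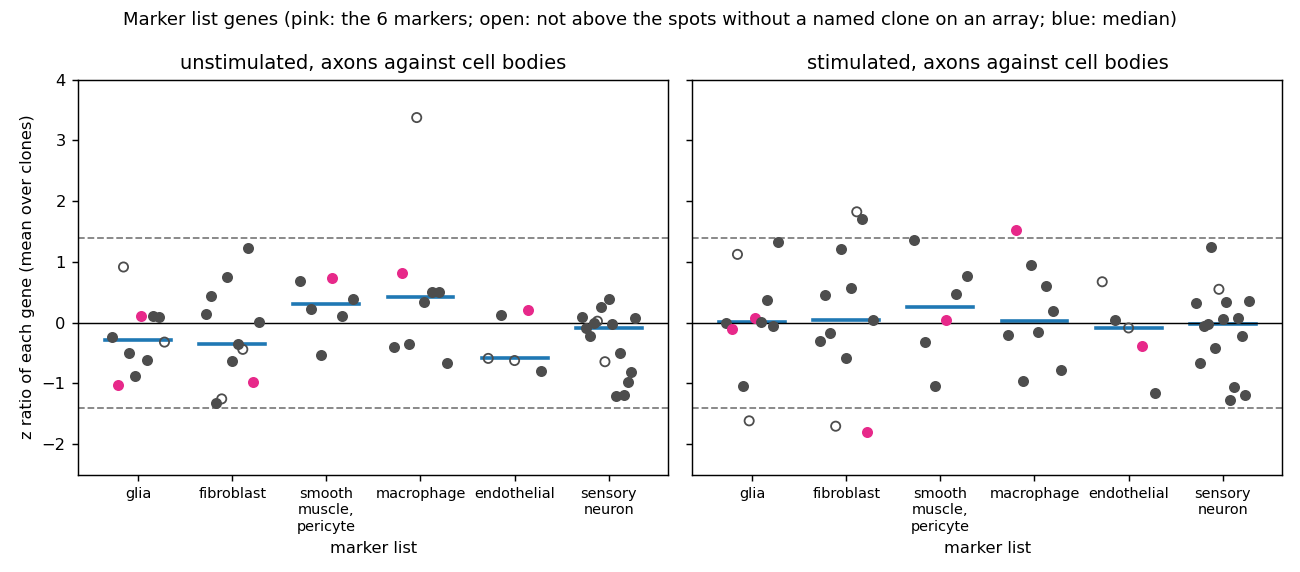
The z ratio of each marker list gene, as a mean over its clones, between axons and cell bodies, without stimulation and with it, with the 6 marker genes in pink, list medians as blue bars and dashed lines at −1.4 and 1.4. Open circles are genes with a clone not above the 95th percentile of the blank places on an array compared. SPARC is the lowest point of the stimulated panel at −1.81. The list medians lie between −0.59 and 0.42, the lowest being the value of CLDN5, an open circle.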

How the data were processed

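After amplification of the compartment RNA, 33P labelling, hybridization to nylon cDNA membranes and phosphor imaging, the authors deposited raw spot intensity values, in 2 tables whose 38400 values are identical. The sources used here do not describe background handling, and the methods and the sample records differ on the amount and pooling of RNA. Genes were taken from the platform annotation, in which 1083 spots were unnamed here.

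From these intensities, z-scores of log10 intensity and z ratios were computed (Python 3.11.15, numpy 2.4.6, pandas 2.3.3). Normexp (offset 50), quantile and loess (span 0.3) alternatives used R 4.3.3 with limma 3.58.1. Other alternatives were undivided differences, median-centred log2 ratios, robust z-scores, only spots above 10, centring by place, thresholds of 1.3 and 2, 1 value per gene and the second table. The number of arrays limits precision. The scripts were tested on simulated data, with changes planted in spots brighter than the mean. The simulated noise was the same at every brightness, unlike that of the arrays. For stimulation in cell bodies the 5th to 95th percentiles of the z ratio were −0.36 to 0.24 in the brightest bin. In the dimmest bin they were −4.06 to 4.11. The shares recovered therefore need not hold for the marker spots. Of 100 planted 2-fold increases, 54 passed the threshold for stimulation in axons and 41 in cell bodies. In axons against cell bodies 38 passed without stimulation and 31 with it. Of 100 planted 4-fold decreases 97, 94, 80 and 63 passed in the same order, so that at this noise many 2-fold changes would be missed. Named were all clones of the 6 genes, the brightest 2 to 4 other genes of each list, up to 6 list genes a comparison past the threshold, the 2 nearest clones, and brighter neighbours. Members and lists were chosen with earlier results of these data known. Brightness bins and the look at spots above 20000 were added after seeing the values.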

Additional observations from a re-analysis of the deposited data

Results flagged for a closer look

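For 4 of the 6 genes the z ratio of stimulation had opposite signs in axons and in cell bodies, as it had for 48.5% of all 6284 genes, and with 1 array per condition the difference was not tested. The z ratio in axons minus that in cell bodies was 1.32 for CDH19 (0.36 and −0.96), −1.24 for SPARC (−0.97 and 0.26), 1.06 for C1QB (0.57 and −0.49) and −0.86 for ESAM (−0.50 and 0.36). None of the 8 values was past the threshold. The spread of a clone about its gene was 0.887 in axons and 0.715 in cell bodies. Of the genes with 1 clone only CDH19 exceeded it, in cell bodies. That spread was taken over clones of any brightness, and among spots of its own brightness C1QB was the 11th lowest of 960 in cell bodies. The SPARC value in axons is a mean of 2 clones, of which only spot 8190 exceeded it. The signs depended on the processing: with log2 ratios C1QB stood above 0 in axons (0.10) as well as cell bodies (0.29), and with robust z-scores ESAM was at 0.02 and −0.35 and SPARC at −0.67 and −0.20.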

How the results depend on the processing

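No paired analysis was possible because each condition is 1 array and the labels carry no replicate numbers, and no replicate could be left out. Counts of marker spots past the threshold, 0 for stimulation in either compartment and 2 in either comparison of axons with cell bodies, changed as follows. For stimulation in axons the count was 1 with robust z-scores (C1QB), 2 with normexp (TAGLN spot 944 and SPARC spot 8190), 1 with spots above 10 and 1 when centred by place (both SPARC spot 8190, at −1.47 and −1.84). For stimulation in cell bodies it was 1 with robust z-scores (C1QB) and 1 each with normexp and with spots above 10 (CDH19). Without stimulation axons against cell bodies gave 1 each with robust z-scores, quantile, loess and centring by place, 3 with normexp (CDH19 added), 0 at a threshold of 2 and 0 of 6 genes with 1 value per gene. With stimulation it gave 4 with robust z-scores, 1 each with quantile and loess, 3 each with normexp and with spots above 10 (SPARC spot 6985 added), and 1 at a threshold of 2. There the count stayed at 2 with other spots under log2 ratios, where both SPARC clones passed, and when centred by place, where TAGLN spot 944 (1.42) passed in place of C1QB (1.26). With the difference undivided both compartment counts were 0, but that scales all spots by a constant and lowers the all-spot counts too, from 847 to 111 and from 1004 to 91, so it says nothing about the markers. Among the 55 list genes, the count for cell body stimulation, 4, was 2 with quantile, 7 with normexp and 9 with spots above 10. The count for unstimulated compartments, 1, was 2 with log2 ratios, 5 with quantile, 5 with normexp and 3 with spots above 10, and for stimulated compartments, 6, it was 11 with log2 ratios, 11 with normexp and 14 with spots above 10. The cause of these changes was not tested. Of 44 spot values, the sign turned in 12 with robust z-scores, 10 with loess, 8 each with quantile and log2 ratios, 7 each with normexp and spots above 10, and 4 when centred by place. Among them were C1QB in axons against cell bodies without stimulation with quantile (−0.14) and loess (−0.10), and for stimulation in cell bodies C1QB with log2 ratios (0.29) and ESAM with robust z-scores (−0.35). The mean of SPARC in axons against cell bodies stayed below 0 under every alternative run, between −3.03 and −0.69 with stimulation and between −1.97 and −0.37 without it. The upper end of each range is the undivided difference, which is the main value in another unit. Without stimulation the weakest of the z ratios was −0.53, when centred by place. The second deposited table gave identical values.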
